A study of Mus musculus with 43 samples.

Results

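Ribosomal RNA, Lars2 and a set of small nuclear and nucleolar RNAs were followed in the testis of Prmt1 knockout mice. The 5 genes described here are CT010467.1, a gene model over ribosomal RNA sequence, Lars2, the mitochondrial leucyl-tRNA synthetase, Rn7sk, the 7SK RNA, Rmrp, the RNA of RNase MRP, and Rpph1, the RNA of RNase P. They were matched by symbol to 6 of the 55401 gene identifiers of the RNA tables. They had been chosen from their share of expected counts in each library, assay and genotype. Their RNA levels and genotype differences are therefore given as a description without a test. Prmt1 is the main type I arginine methyltransferase, which deposits asymmetric dimethylarginine on histones and other proteins.

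The study held 43 samples, of which 10 were RNA libraries from mice at postnatal day 7 (P7) and 33 were CUT&Tag libraries from 7-day and 14-day mice. Bulk RNA-seq compared 3 WT with 3 Prmt1-dKO samples, and Smart-seq2 compared 2 WT with 2 Prmt1-dKO samples. CUT&Tag, in which an antibody directs a transposase to a chromatin mark, was run on H3K4me3, H3K27ac, H4R3me1, H4R3me2a, H3R2me2a, H3R8me2a and H4R3me2s in WT cells at both ages and on H4R3me2s in 7-day Prmt1-dKO cells. By the study's methods, bulk RNA came from whole testis and was selected for poly(A) RNA, although the labels give spermatogonia, whereas Smart-seq2 used GFP-positive sorted cells and oligo-dT priming. The Prmt1-dKO mice carried Prmt1 lox/lox and Ddx4-CreERT2, a Cre driven by the promoter of the germ cell gene Ddx4 together with EGFP, and received tamoxifen, so that in whole testis the somatic cells were not targeted. All mice were C57BL/6J. The labels call the controls WT, and the methods of the cell sort name heterozygous Prmt1 +/lox mice with the same Cre as its controls. The study describes its replicates as biological, and neither it nor the labels tie each RNA library to an animal, so p-values measure only the spread between these samples.

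Most cellular RNA is ribosomal RNA, made by RNA polymerase I (cytosolic) or from mitochondrial DNA, and neither poly(A) selection nor oligo-dT priming is meant to keep it. The 7SK, RNase MRP and RNase P RNAs are made by RNA polymerase III from promoters that lie upstream of the gene and also carry no long poly(A) tail. 7SK RNA, with Hexim1, Larp7 and Mepce, holds the elongation kinase P-TEFb in an inactive pool. RNase MRP cleaves the ribosomal RNA precursor and RNase P trims the leader of precursor tRNAs, and they share most of their proteins. Lars2 charges the mitochondrial leucine tRNA, and its mRNA is made by RNA polymerase II.

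In mm10, CT010467.1 (ENSMUSG00000106106.3, annotated as rRNA) lay on the minus strand at chr17:39846353-39848827. RefSeq places Rn18s-rs5, an 18S-related sequence, on the opposite strand of the same interval, and AY036118 overlaps it, so that reads could not be assigned to a strand or copy. Lars2 (ENSMUSG00000035202.8) lay on the plus strand at chr9:123366927-123462666. Rn7sk (ENSMUSG00000065037.1) lay on the minus strand at chr9:78175303-78175633 and was 331 bases long. Rmrp was held by 2 overlapping identifiers, a ribozyme gene (ENSMUSG00000088088.1, chr4:43492788-43493058, minus strand) and a lincRNA gene (ENSMUSG00000115420.1), which were summed because reads were split between them in 1 library. Rpph1 (ENSMUSG00000092837.1) lay on the minus strand at chr14:50807449-50807767 and was 319 bases long. All 3 of these small RNA genes are single-exon, noncoding genes.

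The promoters of the 3 RNA polymerase III genes are shown because chromatin marks were measured over them. Each runs from 250 bases before to 50 bases after the start, from RefSeq on mm10 (GRCm38), 5′ to 3′ on the strand of the gene, at chr9:78175584-78175883 (Rn7sk), chr4:43493009-43493308 (Rmrp) and chr14:50807718-50808017 (Rpph1). Capitals mark matches on either strand to the octamer ATTTGCAT, to ACCNTAA, part of the proximal sequence element, and to TTATA.
Rn7sk: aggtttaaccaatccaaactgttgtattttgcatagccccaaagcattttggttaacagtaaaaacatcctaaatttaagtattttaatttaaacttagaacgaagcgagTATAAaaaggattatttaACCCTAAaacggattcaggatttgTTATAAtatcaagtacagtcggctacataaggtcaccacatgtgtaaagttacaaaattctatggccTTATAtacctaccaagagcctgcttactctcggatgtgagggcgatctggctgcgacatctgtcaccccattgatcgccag
Rmrp: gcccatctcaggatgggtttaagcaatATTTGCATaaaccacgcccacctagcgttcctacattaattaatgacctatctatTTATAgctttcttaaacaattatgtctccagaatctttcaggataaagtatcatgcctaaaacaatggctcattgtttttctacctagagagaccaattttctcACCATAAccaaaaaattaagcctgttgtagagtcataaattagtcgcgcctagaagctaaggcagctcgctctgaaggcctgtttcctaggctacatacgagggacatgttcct
Rpph1: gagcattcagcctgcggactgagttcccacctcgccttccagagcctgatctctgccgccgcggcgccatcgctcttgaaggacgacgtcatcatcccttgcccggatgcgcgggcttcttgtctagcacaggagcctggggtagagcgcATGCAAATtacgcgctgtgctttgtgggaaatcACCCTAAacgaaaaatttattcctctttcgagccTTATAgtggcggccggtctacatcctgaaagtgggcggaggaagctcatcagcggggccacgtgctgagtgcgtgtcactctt

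These motifs were chosen after the sequences were seen, and a match is a description only. ACCNTAA lay at −122 to −116 in Rn7sk, at −64 to −58 in Rmrp and at −67 to −61 in Rpph1. The Rn7sk match thus lay further upstream than those of Rmrp and Rpph1, and whether it is part of the proximal sequence element was not tested. TTATA lay at −31 to −27 in Rn7sk and at −33 to −29 in Rpph1, and in Rmrp its only match was at −168 to −164. Rn7sk had further TTATA matches at −140 to −136 on the opposite strand and at −98 to −94, the last overlapping a match on the opposite strand at −97 to −93. The octamer lay at −223 to −216 in Rmrp and on the opposite strand at −100 to −93 in Rpph1. These octamer letters were not in the Rn7sk window. Of 32851 RefSeq promoters of the same length, 1.74% held the octamer, 6.98% held ACCNTAA and 24.9% held TTATA, and 21 (0.0639%) held all 3. The windows of Rmrp and Rpph1 printed here also held all 3. GC content was 37.7% for Rn7sk, 40.0% for Rmrp and 57.7% for Rpph1.

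Total expected counts were 12396345 to 16598249 in the bulk libraries and 15610392 to 18547103 in the Smart-seq2 libraries. Prmt1 was at 219 to 247 CPM (counts scaled to library size with edgeR's TMM factors, as everywhere here) in bulk WT and 146 to 199 in bulk Prmt1-dKO, and at 149 and 216 against 86.5 and 112 in Smart-seq2. These are counts of the whole gene and include exons outside the floxed exons. The Smart-seq2 WT pair agreed poorly (r = 0.55 over 13816 genes on the log2 scale), whereas the Prmt1-dKO pair gave 0.94 and the bulk pairs 0.95 to 0.99. The lowest bulk values, 0.96 and 0.95, were those of the second Prmt1-dKO library with the first and the third. Over 10 germ cell markers the libraries summed to 1657 to 1859 CPM in bulk WT, 1561 to 1676 in bulk Prmt1-dKO, 1913 and 1932 in Smart-seq2 WT, and 2483 and 2676 in Smart-seq2 Prmt1-dKO. In bulk, 6 Leydig markers summed to 438 to 541 CPM in WT and 193 to 216 in Prmt1-dKO, with 4 of 6 called lower, 5 myoid markers to 1086 to 1217 and 399 to 804, and 8 Sertoli markers to 4499 to 5139 and 3486 to 3933. The bulk macrophage, endothelial and erythroid sums overlapped between genotypes, the erythroid sums at 714 to 1046 in WT and 691 to 2392 in Prmt1-dKO. In Smart-seq2, 6 macrophage markers were at 0 in both WT libraries and at 30.6 and 35.5 CPM in Prmt1-dKO, 5 erythroid markers at 8.33 and 9.99 against 31.1 and 77.1, the Sertoli markers at 276 and 287 against 506 and 615, and the Leydig markers, 5 of 6 of which were at 0 in a genotype, at 0.366 and 8.17 against 10.3 and 13.2. There the myoid sums overlapped, at 5.09 and 9.62 against 7.22 and 10.5, and 5 endothelial markers were at 0 in WT against 3.15 and 3.64. The Sertoli and Leydig sums were thus lower in bulk Prmt1-dKO and higher in Smart-seq2 Prmt1-dKO, the directions found for CT010467.1 and Lars2 below. Their part in the results below was not tested. In bulk samples, fewer cells of a type and less RNA per cell cannot be told apart.

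Ribosomal RNA signal was lower in the knockout in whole testis and higher in the sorted knockout cells. In bulk, CT010467.1 took 0.998%, 0.880% and 0.912% of expected counts in the 3 WT libraries and 0.312%, 0.229% and 0.528% in the 3 Prmt1-dKO libraries. Every WT library lay above every Prmt1-dKO library, and the Prmt1-dKO libraries spread more widely. The mean CPM was 9465 ± 616 (SD, n = 3) in WT and 3521 ± 1557 (SD, n = 3) in Prmt1-dKO, 2.69-fold lower, and the fitted log2 difference was −1.43 (SE 0.27). In Smart-seq2 the gene took 4.53% and 2.94% in WT and 9.94% and 10.7% in Prmt1-dKO. Here the order was the opposite, with no overlap, and the WT pair was the more spread. The means were 35397 ± 11351 CPM (SD, n = 2) and 109489 ± 1308 CPM (SD, n = 2), 3.09-fold higher in Prmt1-dKO, with a log2 difference of 1.63 (SE 0.30).

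Ranked by expected count, CT010467.1 was the first gene of all 4 Smart-seq2 libraries. In bulk it stood at ranks 1, 2 and 2 in WT and at ranks 7, 18 and 3 in Prmt1-dKO. Counting intervals were narrow at these depths (9.92% to 9.95%, 95% Wilson interval, for the first Smart-seq2 Prmt1-dKO library) and cover counting error only. The spread between libraries was much wider than this interval. Of all members CT010467.1 had the highest TPM, the measure per length, in every library, from 1755 to 9984 TPM in bulk and from 20885 to 76440 TPM in Smart-seq2.

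Lars2 differed in the same directions as the ribosomal RNA gene. Its level in bulk was 705, 692 and 779 CPM in WT against 199, 211 and 185 in Prmt1-dKO. The groups were far apart and each was tight. The mean was 725 ± 47.1 CPM in WT against 198 ± 13.3 in Prmt1-dKO (SD, n = 3 each), 3.66-fold lower, with a log2 difference of −1.87 (SE 0.11). In Smart-seq2 Lars2 was at 291 and 248 CPM in WT against 564 and 588 in Prmt1-dKO. The Prmt1-dKO libraries were both above the WT libraries, with means of 576 ± 17.4 and 269 ± 30.4 CPM (SD, n = 2 each), 2.14-fold apart, and a log2 difference of 1.10 (SE 0.15). By expected count Lars2 ranked 85 to 102 in bulk WT, 694 to 912 in bulk Prmt1-dKO, 483 and 653 in Smart-seq2 WT, and 187 and 146 in Smart-seq2 Prmt1-dKO.

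The ratio of CT010467.1 to Lars2 counts separated the assays. It was 14.4, 12.9 and 11.9 in bulk WT and 15.3, 10.7 and 28.5 in bulk Prmt1-dKO, so that the genotypes overlapped. It was 149 and 110 in Smart-seq2 WT and 193 and 188 in Smart-seq2 Prmt1-dKO, above every bulk library. Assay and tissue changed together between these sets and cannot be told apart.

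7SK RNA was lower in the knockout in both assays. Rn7sk stood at 8.83, 6.54 and 9.87 CPM in bulk WT against 1.31, 4.86 and 1.97 in bulk Prmt1-dKO. The groups did not overlap, and the second Prmt1-dKO library came nearest to WT. These values rest on 106.71 to 157 expected counts per WT library and 18 to 61 per Prmt1-dKO library. The mean was 3.10-fold lower, with a counting interval of 2.59 to 4.0 and a fitted log2 difference of −1.65 (SE 0.41). The log2 ratio of the means was −1.63, and −2.36 without the second Prmt1-dKO library. In Smart-seq2 Rn7sk was at 136 and 116 CPM in WT against 16.5 and 15.9 in Prmt1-dKO. It was 7.77-fold lower there (counting interval 7.09 to 8.54, log2 difference −2.96, SE 0.23), while CT010467.1 and Lars2 were higher in those 2 libraries.

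Lars2 had more counts than Rn7sk in every library, by a ratio that separated the genotypes in the sorted cells. The count of Lars2 per count of Rn7sk was 2.14 in each Smart-seq2 WT library and 34.2 and 37.0 in the Prmt1-dKO libraries. In bulk the same ratio was 79.9, 106 and 79.0 in WT and 152, 43.5 and 94.0 in Prmt1-dKO. The bulk groups overlapped in this ratio, whereas the Smart-seq2 groups did not. Per length, Rn7sk was at 1391 and 1052 TPM in Smart-seq2 WT, above Lars2 at 102 and 87.9 TPM, and at 139 and 134 TPM in Smart-seq2 Prmt1-dKO, below Lars2 at 160 and 188 TPM. Its effective length, which divides the counts in TPM, was only 65.4 to 89.1 bases in bulk and 119 to 139 bases in Smart-seq2, so that its TPM depends strongly on the fragment lengths of the library.

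The RNA of RNase MRP was near the limit of detection. Rmrp had 16, 22 and 15 expected counts in bulk WT and 0, 4 and 7 in bulk Prmt1-dKO. The groups did not overlap, and the means of 1.12 ± 0.207 and 0.254 ± 0.229 CPM (SD, n = 3 each) were 4.41-fold apart, with a counting interval of 2.22 to 9.11. The log2 ratio was −2.14, and −2.82 without the third Prmt1-dKO library. In Smart-seq2 it had 0 counts in both WT libraries and 2.91 and 3 counts in Prmt1-dKO. All 4 libraries were at or under the 3 counts that a count of 0 allows, so no fold is given. In the bulk library with 0 counts this limit was 0.219 CPM.

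The RNA of RNase P showed no separation of the genotypes. Rpph1 had 26, 14 and 31 counts in bulk WT and 6, 15 and 10 in bulk Prmt1-dKO, or 1.74, 0.858 and 1.95 CPM against 0.438, 1.19 and 0.634 CPM. Means of 1.52 ± 0.579 and 0.756 ± 0.393 CPM (SD, n = 3 each) overlapped in their single values. In Smart-seq2 it had 21 and 91 counts in WT and 63 and 79 in Prmt1-dKO, or 1.09 and 4.76 CPM against 4.06 and 5.23 CPM. The WT pair alone spanned more than the difference between genotypes.

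In bulk all 5 genes had a lower mean in Prmt1-dKO, and the groups of 4 of them, all but Rpph1, did not overlap. Of all genes tested, 19.9% had every Prmt1-dKO library below every WT library and 20.9% had every one above. Over all 16554 genes tested in bulk, edgeR called 1.78% lower and 5.32% higher in Prmt1-dKO (adjusted p under 0.05 and a fold of 2 or more). In Smart-seq2, CT010467.1 and Lars2 were higher and Rn7sk was lower without overlap, beside 36.3% of all genes that were higher and 20.3% that were lower in this way. Of 16443 genes tested there, edgeR called 0% higher and 0% lower, with a smallest adjusted p of 0.0774. At an unadjusted p under 0.05 and the same fold there were 2267 higher and 678 lower genes, and DESeq2 called 1238 higher and 664 lower. Since the genes were chosen from these contrasts, nothing is read from their counts against these shares.

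**Figure D1:**
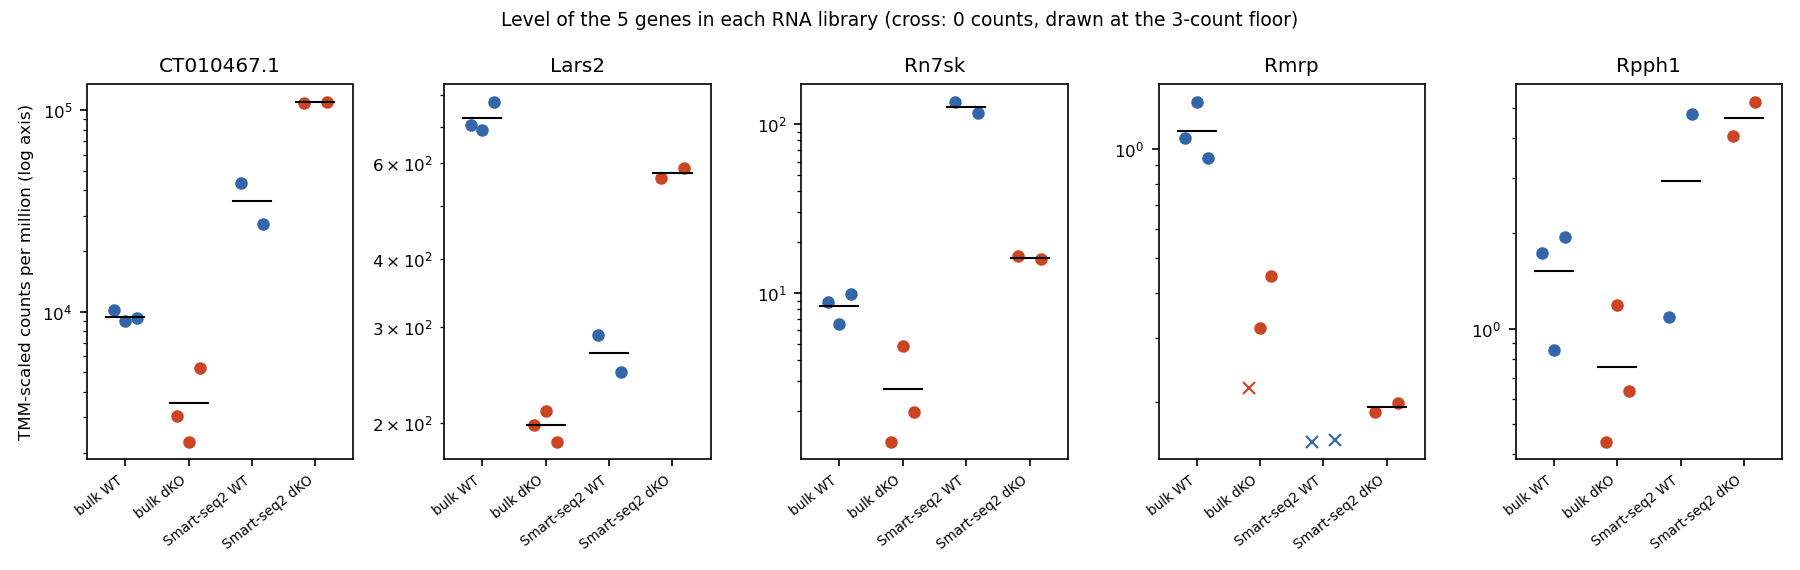
Level of each of the 5 genes in TMM-scaled CPM (log axis, a separate scale per gene) in 3 WT and 3 Prmt1-dKO bulk libraries and 2 WT and 2 Prmt1-dKO Smart-seq2 libraries. Points are libraries, bars are group means, and crosses are libraries with 0 counts drawn at the level of 3 counts. CT010467.1 and Lars2 were lower in Prmt1-dKO in bulk and higher in Smart-seq2, Rn7sk was lower in both, and the Rpph1 groups overlapped in both.

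Other untailed and ribosomal RNAs were set beside the 5 genes. The mitochondrial ribosomal RNA mt-Rnr2 was at 655, 680 and 644 CPM in bulk WT against 212, 246 and 126 in bulk Prmt1-dKO. It passed the edgeR test (log2 difference −1.76, SE 0.22, adjusted p = 0.00183), as did mt-Rnr1 (−1.02, SE 0.16, adjusted p = 0.00360). The call of mt-Rnr1 was lost without the third Prmt1-dKO library, at −0.87, and with library totals in place of TMM, at −0.97. In Smart-seq2 neither passed, with values of 0.65 for mt-Rnr2 (adjusted p = 0.0919) and 0.14 for mt-Rnr1 (adjusted p = 0.658), and the latter turned to −0.03 with library totals.

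7SL RNA, the RNA of the signal recognition particle, is also an RNA polymerase III product. Its summed copies Rn7s1 and Rn7s2 fell in bulk from 11.4 ± 2.88 to 3.58 ± 1.03 CPM (SD, n = 3 each), with edgeR values of −1.67 (SE 0.30, adjusted p = 0.00616) for each. The copies held identical bulk counts, since they share reads, and count as a single signal. In Smart-seq2 the summed copies were at 15.0 ± 6.28 and 35.5 ± 3.04 CPM (SD, n = 2 each), so that 7SL was higher where 7SK was lower. The split between the copies is uncertain there, as Rn7s2 was at 0 in the second Prmt1-dKO library.

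Mitochondrial mRNAs, which carry a poly(A) tail, did not follow the mitochondrial ribosomal RNAs in bulk. The 13 of them summed to 28554 ± 1964 CPM in the 3 WT and 28259 ± 4616 CPM in the 3 Prmt1-dKO libraries (SD), with overlapping groups. In Smart-seq2 they were at 15210 ± 875 and 19830 ± 204 CPM (SD, n = 2 each). The 70 histone genes, many of whose mRNAs end without a tail, were 1.35-fold lower in bulk Prmt1-dKO and 1.73-fold lower in Smart-seq2 Prmt1-dKO. The 84 mRNAs of cytosolic ribosomal proteins were 1.65-fold and 1.68-fold higher, in the opposite direction to CT010467.1 in bulk and in the same direction in Smart-seq2. These sums are descriptions and were not tested.

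**Figure D2:**
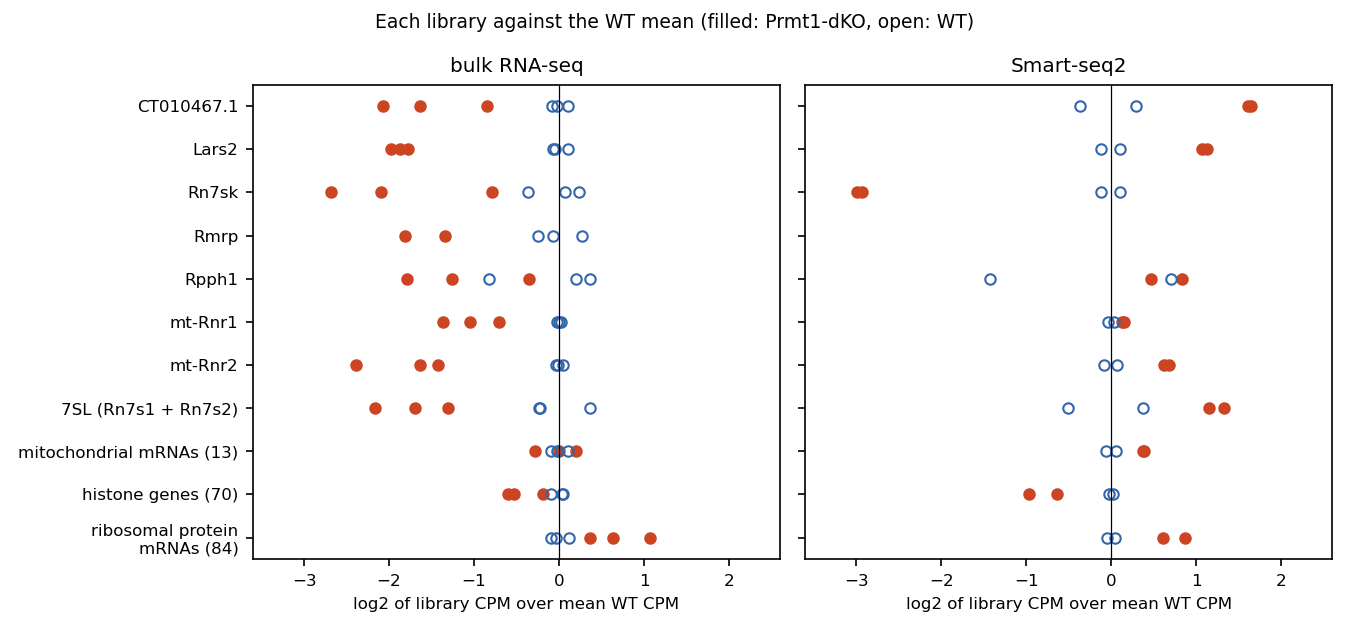
Difference between Prmt1-dKO and WT in log2 units of TMM-scaled CPM, for the 5 genes and the RNA groups set beside them, in bulk RNA-seq and Smart-seq2. Each library is drawn against the WT mean, Prmt1-dKO filled and WT open. The bulk Prmt1-dKO library with 0 Rmrp counts and Rmrp in Smart-seq2 are not drawn. CT010467.1 and Lars2 lie below 0 in bulk and above 0 in Smart-seq2, and Rn7sk lies below 0 in both.

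Genes for the proteins that make or work with these RNAs were tested in the same fit. Over the 7 lists together, edgeR called 4 of 119 tested genes lower and 0 higher in bulk, the same numbers at an unadjusted p under 0.05 and by DESeq2. Of all 16554 genes tested in bulk, edgeR called 1.78% lower and 5.32% higher. The 4 listed genes called were mt-Rnr1, mt-Rnr2 and the 7SL copies, described above, from the lists of ribosomal and of small untailed RNAs. Of those lists, 2 of 4 ribosomal RNA genes and 2 of 38 small RNA identifiers passed the filter on low counts, and 17 of the small RNA identifiers were at 0 in all bulk libraries. In Smart-seq2 edgeR called 0 of 127 listed genes. At an unadjusted p under 0.05 and a fold of 2 there were 6 higher and 3 lower, and DESeq2 called 4 higher (Aff1, Cd3eap, Hnrnpa1 and Utp20) and 2 lower (Fars2 and Larp7). Over all genes the numbers were 2267 higher and 678 lower of 16443 without adjustment, and 1238 and 664 of 16901 by DESeq2.

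No protein partner of 7SK reached both an adjusted p under 0.05 and a fold of 2 in bulk. The smallest adjusted p of this list was 0.0321, for a gene under that fold. The 18 genes of the 7SK particle and P-TEFb had a median log2 difference of −0.07, against 0.02 over all genes tested, and the highest was Hexim2 at 0.54 (adjusted p = 0.104), an inhibitor of P-TEFb. Larp7, which binds and stabilises 7SK RNA, was at −0.08 (adjusted p = 0.719) in bulk. In Smart-seq2 Larp7 was at 133 and 213 CPM in WT against 86.5 and 71.4 in Prmt1-dKO, −1.13 on the log2 scale (adjusted p = 0.0927), without overlap. Aff1, a scaffold of the super elongation complex, had 0 counts in both Smart-seq2 WT libraries and 37.1 and 36.1 CPM in Prmt1-dKO, at least 235-fold higher with 3 counts per library as the floor (adjusted p = 0.0774). In bulk Aff1 was at 60.8 to 69.6 CPM in WT and 39.1 to 61.1 CPM in Prmt1-dKO.

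The proteins of RNase MRP and RNase P, the other partners of Rmrp and Rpph1, had a bulk median of 0.11 over 12 genes, from −0.07 for Rpp40 to 0.66 for Pop5 (adjusted p = 0.0696). Rpp40 turned to 0.01 without the third Prmt1-dKO library. In Smart-seq2 they had a median of 0.10, from −0.58 for Rpp21 to 0.94 for Rpp40.

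The 24 genes of RNA polymerase III and its factors, which transcribe Rn7sk, Rmrp and Rpph1, had a bulk median of 0.04. The lowest was Polr3k at −0.62 (adjusted p = 0.00554) and the highest Polr3gl at 0.76 (adjusted p = 0.00322), both subunits of the polymerase and both under the fold of 2. In Smart-seq2 the median was 0.18, and Polr3g, the subunit that Polr3gl can replace, was at 57.5 and 52.4 CPM in WT against 112 and 107 in Prmt1-dKO (1.0, adjusted p = 0.0774). The lowest there was Zfp143, an activator of small RNA promoters, at −1.01 (adjusted p = 0.773), with WT libraries at 61.6 and 2.46 CPM. Without the first WT library it was at 2.71.

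The 40 genes of RNA polymerase I and ribosomal RNA processing, which make the RNA measured by CT010467.1, had a bulk median of 0.03, from −0.38 for Tcof1 (adjusted p = 0.0616) to 0.83 for Taf1d (adjusted p = 0.00387, under the fold of 2). In Smart-seq2 the median was 0.38, from −0.49 for Znrd1 to 1.48 for Cd3eap. The list of mitochondrial aminoacyl-tRNA synthetases other than Lars2 held 21 genes, among them Qrsl1, Gatb and Gatc, which are not synthetases themselves. These genes had a bulk median of −0.03, from −0.25 for Qrsl1 to 0.41 for Fars2 (adjusted p = 0.0248), so that none lay near the −1.87 of Lars2. In Smart-seq2 their median was −0.24, with Aars2 the highest at 1.12, where 1 WT library had 0 counts and leaving out 1 library gave 0.14 to 10.53, and Fars2 the lowest at −1.15 (adjusted p = 0.0774). Fars2, for phenylalanine, was at 169 and 149 CPM in WT against 71.3 and 72.0 in Prmt1-dKO. The median over all genes tested in Smart-seq2 was 0.15, and −0.01 with library totals. Among small RNAs with a mean of at least 50 counts there, Snord13 was the highest at 3.15 (adjusted p = 0.210, 2.41 without the second Prmt1-dKO library, and called without either WT library) and Rn7s2 the lowest at 0.16, which turned to −0.04 with library totals.

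**Figure D3:**
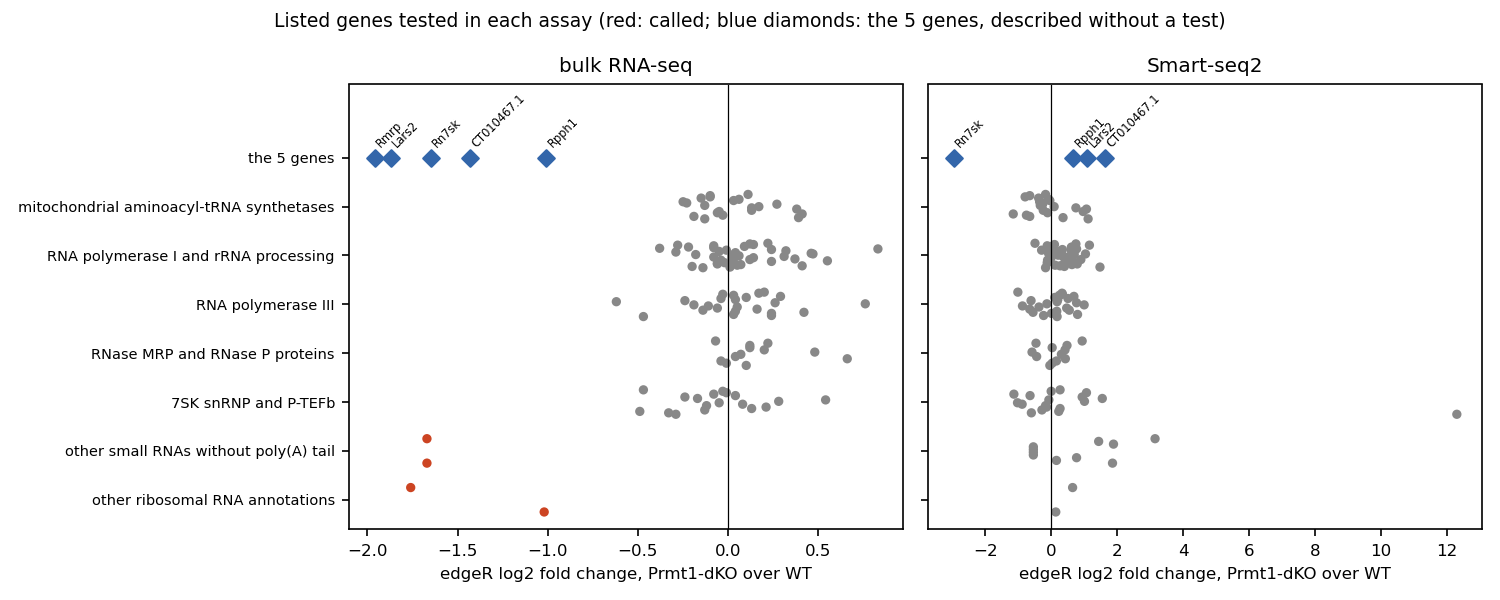
Log2 difference between Prmt1-dKO and WT for each tested gene of the 7 lists, in bulk RNA-seq and Smart-seq2, with the 5 genes as blue diamonds. In bulk the points of the protein lists lie between −0.62 and 0.83, and the mitochondrial ribosomal RNAs and 7SL lie lower.

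The 5 genes together took 0.949% to 1.07% of expected counts in bulk WT, 0.251% to 0.546% in bulk Prmt1-dKO, 2.98% and 4.57% in Smart-seq2 WT, and 9.99% and 10.7% in Smart-seq2 Prmt1-dKO. Left out, they raise the TPM of every other gene by a factor of up to 1.083, reached in a Smart-seq2 Prmt1-dKO library. Counting a gene as expressed at a mean of 1 TPM or more, Smart-seq2 Prmt1-dKO held 15447 genes with them and 15671 without them. Smart-seq2 WT held 14767 and 14802 genes. In bulk the numbers were 15493 and 15506 in WT and 16313 and 16314 in Prmt1-dKO. The shift was greatest where CT010467.1 was highest.

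Genes whose level ran most parallel to each gene were ranked over the 10 libraries by the SD of their log2 ratio, among 11168 genes. This is a description over 2 assays and 2 genotypes that share libraries. For CT010467.1 these were Ttn (SD 0.75), mt-Rnr1 (0.77) and 4632427E13Rik (0.88), so that the best likeness was loose. For Lars2 they were Prc1 (0.41), Idi1 (0.45) and Nefm (0.48). For Rn7sk they were Sdf2l1 (0.69), Cdkn3 (0.81) and Cutc (0.88). For Rmrp they were Zdhhc21 (0.36), Ncapd2 (0.37) and Slc39a6 (0.37), and for Rpph1 3110040N11Rik (0.32), Dpy30 (0.38) and Pdzd11 (0.40), values that rest on few counts and on the added 0.5 CPM.

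Lars2 also stood apart in the CUT&Tag peaks. A peak with its summit 95036 to 95136 bases from the gene start was called in 33 of 33 lists, whatever the mark, age or genotype. It lay in the last exon (chr9:123461499-123462666), downstream of the stop codon and so in the 3′UTR. Its fold enrichment, as the authors' peak caller gave it, was 8.92 to 20.9 with a median of 11.7, and its −log10 q was 23.4 to 178. By fold it ranked 7 to 91 in lists of 15361 to 55908 peaks, whose median fold was 2.86 to 5.27. The peak was highest in the H3R8me2a lists at 7 days, at 20.6 and 20.9, and lowest in an H3K27ac list at 7 days, at 8.92. For H4R3me2s at 7 days it was 17.1 and 17.2 in WT and 15.8 and 16.3 in Prmt1-dKO.

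Of 55536 annotated genes, 10 (0.0180%) had a summit of the 100 highest peaks of every list, and Lars2 was among them. These were Lars2, Gm27940, Flt1, Chl1, Gm33838, Mdga2, Cmss1, Filip1l, Atrnl1 and Cldn34d, of which those other than Lars2 were named after the values were seen. A gene was counted as marked where a summit lay in its body or within 3000 bp of a start. Lars2 was also among 768 genes (1.38%) marked in every list.

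The last exon of Lars2 holds sequence found elsewhere in the genome. The exon gave 62 alignments to other places in mm10, at any identity and for any part of it. Of these, 16 matched at 90% identity or more over at least 60 bases (90.3% to 98.8%). They lay on 11 chromosomes, with sequence outside the chromosomes not counted there. Together these 16 spanned a stretch of 398 bases (chr9:123461792-123462189), though single alignments could be shorter. The stretch lay 94865 to 95262 bases from the gene start and so around every summit of the last-exon peak. By the same limits CT010467.1 had 7 alignments elsewhere, on 5 chromosomes. No alignment was found between Lars2 transcripts and CT010467.1, which covers an 18S-related sequence, and the stretch was not compared with 28S or precursor ribosomal RNA here. Copies of both, at 79.4% and 76.7% identity, lay 2310 bp apart at a single place, chr9:3257784-3257938 for Lars2 and chr9:3260248-3261149 for CT010467.1. The tables give 1 count per gene, so the share of Lars2 reads that fell in this stretch was not measured.

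**Figure D4:**
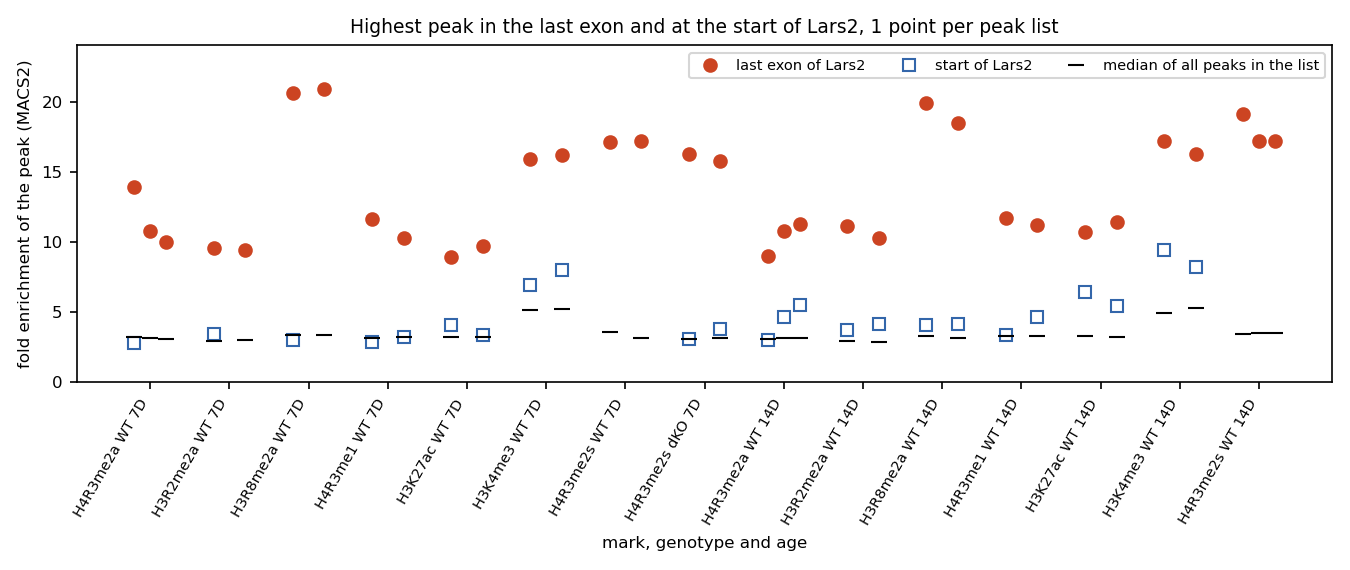
Fold enrichment of the Lars2 peak in the last exon and of the peak at the Lars2 start in the CUT&Tag lists, by mark, age and genotype. Each point is 1 list. The last-exon peak is between 8.92 and 20.9 in all 33 lists and the start peak, present in 24, is between 2.76 and 9.42.

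At the start of Lars2, the place of an ordinary promoter, a summit within 3000 bp was called in 24 of 33 lists, with a fold of 2.76 to 9.42. All H3K4me3 and H3K27ac lists held it at both ages, at 6.96 to 9.42 for H3K4me3 and 3.37 to 6.44 for H3K27ac. The lists of WT arginine marks held it in 5 of 11 at 7 days and 9 of 12 at 14 days, or in 0 and 7 at q of 0.01 or less. None of the 5 WT H4R3me2s lists held it, and both Prmt1-dKO H4R3me2s lists did, with a −log10 q of only 0.0844 and 0.514, so that at q of 0.01 or less neither genotype held it. With 2 lists against 2 at 7 days an exact test could not reach p < 0.05, and none was run.

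Over CT010467.1, 29 of 33 lists held a summit in the gene body, with a fold of only 1.88 to 2.89, below the median peak of its list in all 29. The 4 lists without one were 14-day lists of arginine marks. The gene held such a summit in all 11 WT lists of arginine marks at 7 days and in both Prmt1-dKO lists. Its ribosomal RNA counts thus stood at or near the top of the RNA libraries. Its peaks stood near the bottom of the peak lists by fold, at rank 15307 to 36120 at 7 days, though not by q.

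Starts of the 3 small RNA genes carried the marks of active promoters. A summit within 3000 bp was called in 21 of 33 lists for Rn7sk, 20 for Rmrp and 24 for Rpph1. Every H3K4me3 and H3K27ac list held all 3, at a fold of 5.96 to 7.31 for H3K4me3 and 3.51 to 6.96 for H3K27ac. The share of all genes marked in at least 2 lists was 31.6% for H3K4me3 and 19.4% for H3K27ac at 7 days, and 34.7% and 30.0% at 14 days. Other starts lay close by, at 281 bp for Rn7sk (C920006O11Rik, opposite strand), 158 bp for Rmrp (Ccdc107, opposite strand) and 35 bp for Rpph1 (Ccnb1ip1, same strand), so that these peaks cannot be assigned to 1 gene.

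Arginine methyl marks were found at these starts in fewer lists at 7 than at 14 days. For Rn7sk, 4 of 11 lists at 7 days and 9 of 12 at 14 days held a summit. For Rmrp the numbers were 4 of 11 and 8 of 12, and for Rpph1 4 of 11 and 11 of 12. At q of 0.01 or less, 0 of 11 lists held a summit at any of these starts at 7 days, and at 14 days 7 of 12 lists did for Rn7sk, 5 for Rmrp and 4 for Rpph1. Over all genes too, the share marked was lower at 7 days. H4R3me2a marked 15.2% of genes at 7 days and 33.3% at 14 days, H3R2me2a 11.3% and 32.6%, and H3R8me2a 9.45% and 22.4%. H4R3me1 marked 11.8% and 20.6%, and H4R3me2s 14.7% and 23.8%. Depth per list was not given, so the lists were compared by presence only, and the 14-day labels conflict on the cell type, with spermatogonia in the titles and spermatocytes in the cell type field.

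H4R3me2s was the only mark with Prmt1-dKO lists. At 7 days Rn7sk held a summit in 2 of 2 WT lists and 0 of 2 Prmt1-dKO lists. Rmrp held one in 1 of 2 and 0 of 2 lists, and Rpph1 in 2 of 2 and 1 of 2. The share of all genes marked was 14.7% in WT and 12.2% in Prmt1-dKO. At q of 0.01 or less, none of the 3 starts was marked in H4R3me2s in either genotype. The Lars2 start, given above, was held in the Prmt1-dKO lists only and likewise not at this q.

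**Figure D5:**
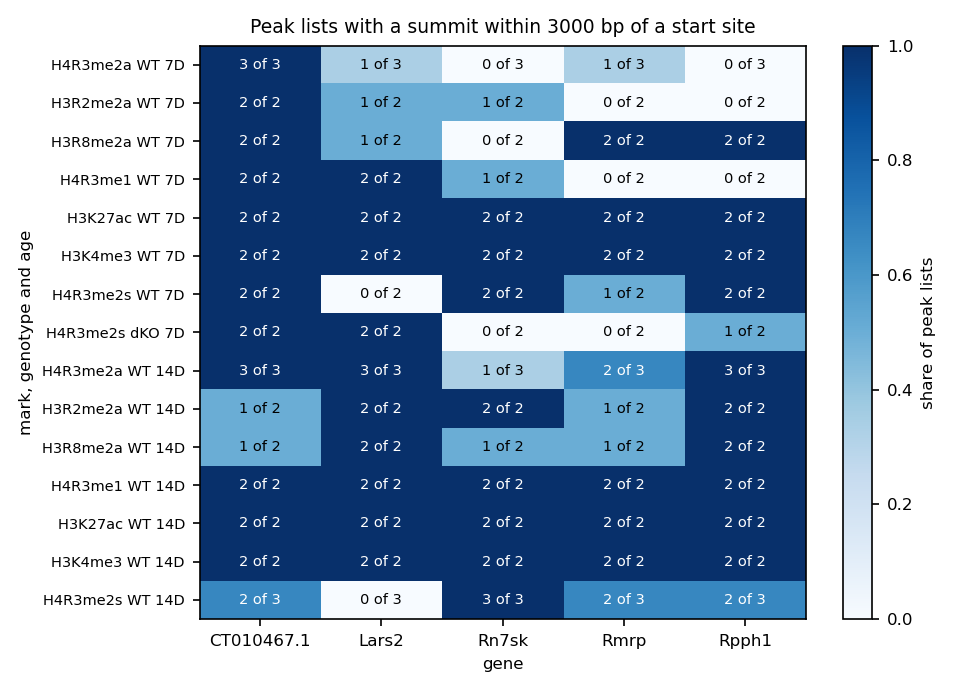
Number of CUT&Tag lists with a summit within 3000 bp of the start of each gene, by mark and age, as a share of the lists of that mark. H3K4me3 and H3K27ac lists hold all starts, and the pooled arginine marks, though not each mark, hold more of the Rn7sk, Rmrp and Rpph1 starts at 14 than at 7 days.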

How the data were processed

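RNA was measured in 10 libraries and chromatin marks in 33. The authors trimmed reads with fastp 0.23.2, aligned them with STAR to mm10 and deposited RSEM expected counts, TPM and FPKM per gene. Genes were named through GENCODE vM21, which matched 55141 of 55401 identifiers, the tables having been made with another annotation. MACS2 2.1.0 gave the deposited peak lists, 1 per library, with fold enrichment (a ratio) and −log10 p and q values by the authors. FPKM values deposited by the authors were not used. The controls used in peak calling were not given in the sources used here.

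Expected counts were rounded and tested with edgeR 4.0.16 (R 4.3.3, quasi-likelihood test, filterByExpr, TMM, Benjamini-Hochberg over all genes), calling adjusted p under 0.05 and a fold of 2 or more. DESeq2 1.42.0 was an alternative. The code was tested on simulated data. Copies in mm10 were found with blastn 2.17.0. The 5 genes and the gene lists were chosen with earlier results of these data known. The text names the 5 genes, listed genes called, the highest and lowest listed gene with a mean of at least 50 counts per list and assay, and the 3 genes most like each of the 5. A listed gene that the rule names is not reported here. Shares carry 95% Wilson intervals, which cover counting error only. Alternatives were size factors, library totals (for listed genes added after the data were seen), no filter, TPM, a replicate block, each library left out, another summit window and q of 0.01.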

Additional observations from a re-analysis of the deposited data

Results flagged for a closer look

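In 8 of the 27 named genes examined, every Prmt1-dKO library lay on one side of the WT libraries in bulk and on the other side in Smart-seq2. The same held for 1460 of 14171 genes tested in both assays (10.3%). The difference between the assays was not tested, and assay and tissue changed together. The values are log2 ratios of mean CPM, first in bulk and then in Smart-seq2. CT010467.1 gave −1.43 and 1.63. Lars2 gave −1.87 and 1.10. The mitochondrial ribosomal RNAs gave −1.02 and 0.14 (mt-Rnr1) and −1.76 and 0.65 (mt-Rnr2), and Rn7s1, a 7SL copy, gave −1.68 and 1.86. The Smart-seq2 value of Rn7s1 depends on the uncertain split between the 7SL copies, whose sum gave −1.68 and 1.25. Among protein genes, Polr3g gave −0.19 and 1.0, Tcof1 gave −0.37 and 0.63, and Fars2 ran the other way at 0.41 and −1.15.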

How the results depend on the processing

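Directions of CT010467.1, Lars2, Rn7sk and Rmrp held under every alternative run, in each assay where a ratio was given, and of Rpph1 in bulk. With deposited TPM the log2 ratios were −2.01 for Lars2 and −2.67 for Rmrp in bulk, and 0.88 for Lars2 and −3.16 for Rn7sk in Smart-seq2, where library totals alone gave 0.93 and −3.13. By TPM the 5 genes held 7.22% of Smart-seq2 Prmt1-dKO. Leaving out 1 library gave, in bulk, −1.84 to −1.19 for CT010467.1, −1.92 to −1.82 for Lars2, −2.36 to −1.33 for Rn7sk, −2.82 to −1.57 for Rmrp and −1.50 to −0.75 for Rpph1. In Smart-seq2 it gave 1.35 to 2.02 for CT010467.1, 1.0 to 1.23 for Lars2, −3.05 to −2.82 for Rn7sk and −0.02 to 2.11 for Rpph1, which reversed without the first WT library.

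Listed genes called lower in bulk were 3 to 4 with 1 library left out. In Smart-seq2 they were 0 to 22 higher and 0 to 6 lower. Without the first WT library 22 were higher and 4 lower, and without the second 14 and 6, the lone WT library being assumed to vary like the Prmt1-dKO pair, whereas without either Prmt1-dKO library none was called. DESeq2 gave 4 higher and 2 lower in Smart-seq2. The cause was not tested. Over all genes in Smart-seq2 the calls were 5290 higher and 2146 lower without the first WT library and 4089 and 2029 without the second, against 0. In bulk, the unfiltered table gave 1777 higher and DESeq2 1379, against 881. Reversed single genes were mt-Rnr1 (−0.03) and Rn7s2 (−0.04) with library totals in Smart-seq2, and, with 1 library left out, Rpp40 in bulk (−0.14 to 0.01), Rn7s2 (−10.05 to 1.14) and Zfp143 (−1.93 to 2.71) in Smart-seq2. At q of 0.01 or less, Rmrp and Rpph1 were each marked in 5 of 15 groups.

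Deviations of same-numbered samples from their group means had r of 0.0825, −0.221 and −0.119 in bulk and 0.0177 in Smart-seq2. These values gave no sign that the numbers pair the samples and cannot exclude it. With 2 libraries per group the Smart-seq2 deviations mirror each other. With the replicate block, bulk calls over all genes went from 881 higher and 294 lower to 691 and 259, the 4 listed calls were again 4, and in Smart-seq2 Rn7s2 was at −2.94, Zfp143 at 0.27 and Aars2 at 3.98 (1.12 without the block). Not every bulk sample correlated best with its own number.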
